A study of Mus musculus with 2 samples.

Results

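The genes described here are the 7 MHC class II presentation genes H2-Ab1, H2-Aa, H2-Eb1, Cd74, Ciita, H2-DMa and H2-DMb1. They were chosen by gene symbol, not by level, and all 7 were found among the 32285 features listed for the series. Single cells had been prepared from mouse retinas and sequenced as 10x Genomics 3' libraries, with 1 library per group and 6 retinas pooled in each, per the labels. The knockout library came from GLAST-CreER; Atg5fl/fl mice, which received lipopolysaccharide (LPS, a bacterial cell wall component that provokes inflammation) in the vitreous at 0.5 µg per eye together with 4-hydroxy-tamoxifen. The control library came from Atg5fl/fl mice with the same LPS dose, and their labels name neither a Cre nor 4-hydroxy-tamoxifen. GLAST-CreER places a tamoxifen-dependent Cre under the promoter of the glutamate transporter GLAST, which is used by Müller glia and other astroglia, and Atg5 is needed to form autophagosomes. Genotype, Cre and drug differed together between the libraries and cannot be told apart. With 1 library per group there was no replicate check, so the differences below compare these libraries and carry no test. Intervals are exact 95% intervals that cover counting error only. The mice's ages and sexes and the time from injection to harvest are not given in the sources used here.

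MHC class II molecules are pairs of an alpha and a beta chain that carry peptides of engulfed proteins to the cell surface, where CD4 T cells read them. H2-Aa and H2-Ab1 encode the chains of the I-A molecule and H2-Eb1 the beta chain of I-E. Cd74, the invariant chain, guides new class II molecules to the endosome, H2-DMa and H2-DMb1 form the DM factor that exchanges peptide there, and Ciita is the coactivator that switches the whole group on. Dendritic cells, B cells and many macrophages carry class II, and interferon gamma induces it through Ciita in other cell types, while resting retinal neurons and glia carry little.

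RefSeq promoter sequences (GRCm38.p6) were on hand for 4 of the 7 genes. The 150 bases before the start of H2-Aa (chr17:34287824-34287973, minus strand) and H2-Eb1 (chr17:34305717-34305866, plus strand) are shown because both genes carry the Y box through which the Ciita complex acts, and because both were counted in the same few cells. Capitals mark the Y box core TGATTGG in both, the palindrome TGACGTCA of a cyclic AMP response element in H2-Aa, and in H2-Eb1 the run AACTGATGATGCT at its X box, which is the longest run of letters that the H2-Eb1 and H2-DMb1 windows share.
H2-Aa: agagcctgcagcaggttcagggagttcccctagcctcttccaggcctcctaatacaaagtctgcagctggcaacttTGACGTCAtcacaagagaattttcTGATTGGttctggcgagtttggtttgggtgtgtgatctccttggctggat
H2-Eb1: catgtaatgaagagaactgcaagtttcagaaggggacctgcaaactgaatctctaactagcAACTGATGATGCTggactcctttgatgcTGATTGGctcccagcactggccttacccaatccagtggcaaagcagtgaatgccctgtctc
The Y box core lay 50 bases before the start of H2-Aa, 61 before that of H2-Eb1 and 63 before that of H2-DMb1. The shared run lay 89 bases before the start of H2-Eb1 and 92 before that of H2-DMb1. Among 32851 promoter windows, searched on both strands over 250 bases, 7.23% held TGATTGG and 1.55% held TGACGTCA. The run AACTGATGATGCT was in 2 windows, those of H2-Eb1 and H2-DMb1 from which it was read, so its presence there is no result. Neither H2-DMa window held any of the 3 motifs, which says only that these letters are not in those windows. The shorter Y box core GATTGG was found for H2-DMa, and 14.6% of all windows held it.

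All but 2 of the genes lie on chromosome 17 of the mm10 build. H2-DMa spans chr17:34119541-34139101, H2-DMb1 chr17:34153072-34160230, H2-Ab1 chr17:34257689-34269419 and H2-Eb1 chr17:34305867-34316674 on the plus strand, and H2-Aa spans chr17:34282744-34287823 on the minus strand. Ciita lies at chr16:10480059-10528418 and Cd74 at chr18:60803848-60812652, both on the plus strand. These are whole gene spans from the GENCODE annotation of that build, and their identifiers matched those of the files. H2-DMa overlaps the opposite-strand gene Brd2, and H2-DMb1 neighbours its near copy H2-DMb2. Whether counting used strand is not given in the sources used here, so the H2-DMa counts are uncertain to that extent. H2-DMb1 and H2-DMb2 lie on the same strand without overlap, and how well counting told these near copies apart was not tested.

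The knockout library held 5229 barcodes and 50669135 UMIs (unique molecular identifiers, each counting 1 captured RNA molecule), and the control library 8690 barcodes and 43664504 UMIs. After the study's stated filter, 4662 knockout and 8274 control cells were kept, with a median of 6807 and 1396 UMIs per cell. Rod-like cells, which were shallow in both libraries, made up 11.2% of the knockout cells and 41.8% of the control cells, so levels are compared within cell classes. Clustering without the class II genes gave 12 marker-named classes and 7 clusters left unnamed. The libraries shared 15 cell barcodes. Levels are UMIs per 1000000 UMIs of the same cells (CPM). Atg5 had 18.1 CPM in knockout and 19.7 CPM in control Müller glia-like cells, a ratio of 0.916 (0.719 to 1.17). It had 15 UMIs in knockout and 78 in control monocyte and macrophage-like cells, a ratio of 0.381 (0.204 to 0.668). A 3' tag outside the deleted part would not report the deletion, so these values do not check the labels.

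Over all kept cells, whose class make-up differed between the libraries, each of the 7 genes was at least 1.5-fold lower in knockout, where 15.5% of 20123 genes were lower and 8.42% were higher. The ratios ran between 0.206 (0.191 to 0.222) for H2-Ab1 and 0.551 (0.478 to 0.635) for H2-DMa. At least 1 chain UMI was counted in 3.30% of the knockout cells and 3.75% of the control cells.

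The 3 class II chains H2-Ab1, H2-Aa and H2-Eb1 were mostly counted in a few monocyte and macrophage-like cells. This class numbered 51 in the knockout library and 94 in the control library, or 1.09% and 1.14% of the kept cells, yet they held 91.0% and 93.2% of all chain UMIs. The level was lower in the knockout class for each of the 3 chains, which together had 1807 CPM (1731 to 1886) in knockout and 3700.4 CPM (3622 to 3780.0) in control, a ratio of 0.488 (0.465 to 0.512). H2-Ab1 had 725 UMIs in 20 knockout cells and 3423 UMIs in 51 control cells, which is 628 CPM (583 to 675) and 1495 CPM (1445 to 1545), a ratio of 0.420 (0.387 to 0.455). H2-Aa had 682 UMIs in 9 knockout cells and 2703 UMIs in 31 control cells, a ratio of 0.500 (0.459 to 0.544). H2-Eb1 had 681 UMIs in 8 knockout cells and 2349 UMIs in 30 control cells, a ratio of 0.575 (0.527 to 0.626). The class made up a similar share of the cells in both libraries, and the lower level was within it. Median depth of the class was also close, at 21543 UMIs per cell in knockout and 22167 in control.

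The class carried its own markers in both libraries, with all 17 monocyte and macrophage markers counted and a sum of 11524 CPM in knockout and 12636 CPM in control. Sums of the marker lists of other cells differed between the libraries. The 12 neutrophil markers summed to 5782 CPM in knockout and 2036 CPM in control. In knockout, 5765 UMIs of that list were in 14 cells of subcluster L1, described below. Of these cells, 1 held 2518, and the median was 5. The 15 dendritic markers summed to 269 and 398 CPM, and the 8 rod markers to 151 and 382 CPM. The 11 Müller glia markers summed to 1544 and 4305 CPM. Apoe, a gene of that list, had 438 CPM in knockout and 2673 CPM in control. Camp was at 0 among the neutrophil markers in knockout, and Xcr1 and Clec9a were at 0 among the dendritic markers in knockout. Their part in the chain result was not tested.

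Across all 7 genes, 5 were at least 1.5-fold lower in the knockout monocyte and macrophage-like cells, where 14.5% of the 9218 genes with at least 20 UMIs were lower and 6.9% were higher by that bound. The median log2 ratio of the 7 genes was -0.97, beside -0.02 over all genes of the class. Ciita and H2-DMb1 lay between the bounds.

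**Figure D1:**
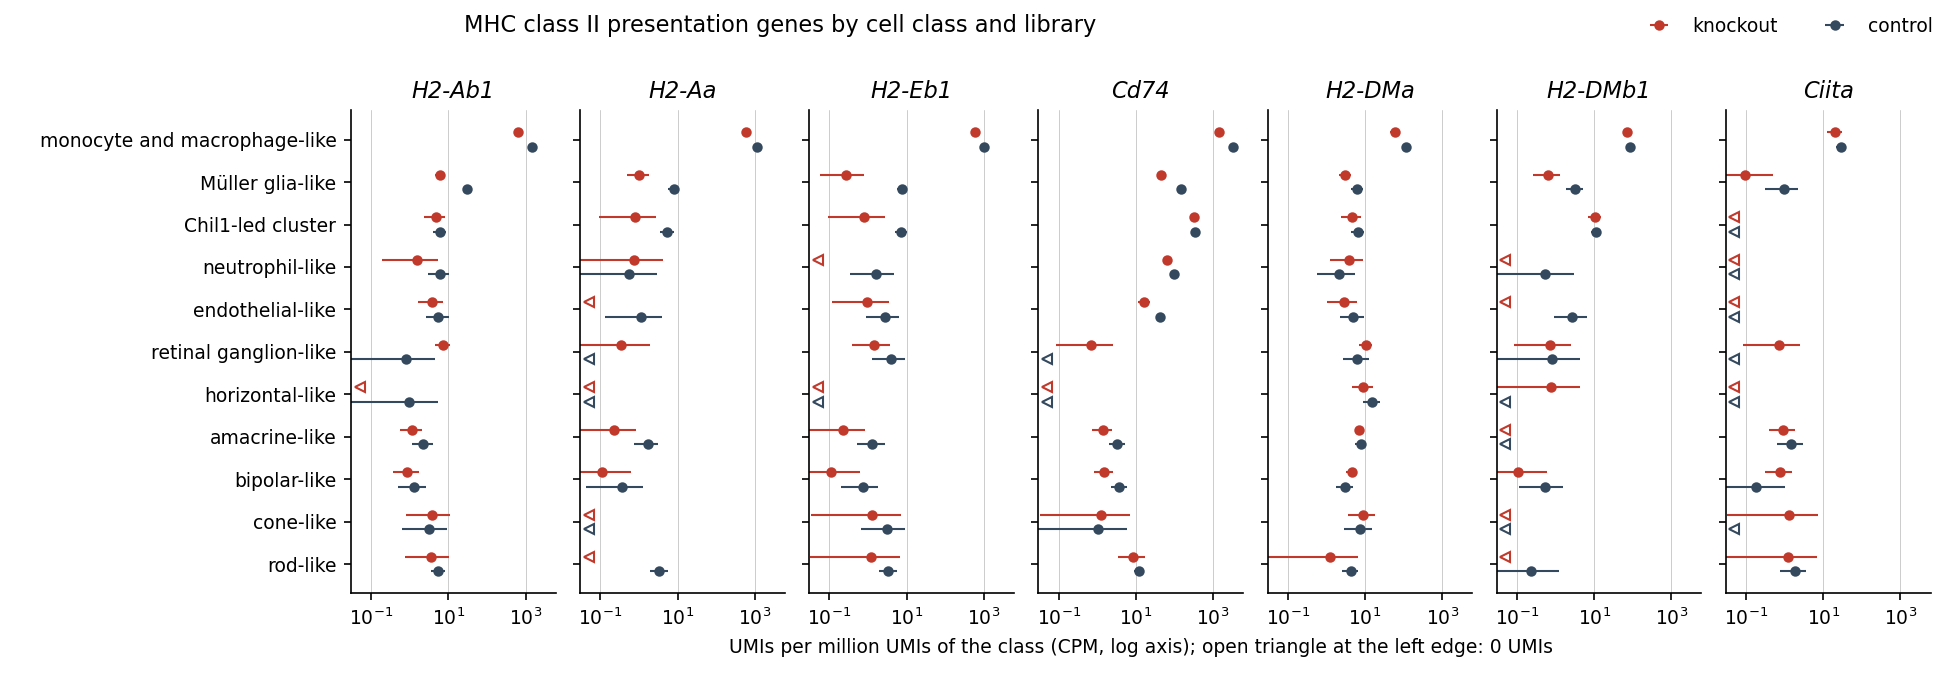
Level of each of the 7 genes (CPM, log axis) in the named classes of at least 20 cells in each library and in the Chil1-led cluster n06, with knockout and control points and exact 95% intervals of counting error; open triangles mark 0 UMIs. The chains stand out in monocyte and macrophage-like cells, at 1807 CPM summed in knockout and 3700.4 CPM in control, while Cd74 is also high in cluster n06.

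The chain RNA was concentrated in single cells. In the knockout class the top 10 cells held 99.2% of the chain UMIs and 3 cells held 50%, and in the control class the top 10 held 67.6% and 6 cells held 50%. The highest cell had 475 chain UMIs in knockout and 1326 in control. Cells with at least 10 chain UMIs numbered 8 of 51 in knockout (15.7%, 7.02 to 28.6) and 28 of 94 in control (29.8%, 20.8 to 40.1). Few cells lay near that bound: 1 knockout and 2 control cells had 5 to 9 chain UMIs, and 0 knockout and 2 control cells had 10 to 14. In the cells past it, the lowest, median and highest chain counts were 23, 269 and 475 UMIs in knockout and 10, 229 and 1326 UMIs in control. The cells that carried chains thus carried similar amounts in both libraries, while the intervals of their share of the class overlapped. Every one of these cells in both libraries had all 3 chains and Cd74.

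The class split into 4 subclusters when it was clustered again without the class II genes, and the libraries differed mainly in the subcluster named L0 here, which was led by Lyz2, Saa3 and Arg1. L0 had 17 knockout and 33 control cells. Its 3 chains had 13 UMIs in knockout and 2998 in control, or 28.3 and 3106 CPM, a ratio of 0.00911 (0.00484 to 0.0156). H2-Ab1 gave all 13 of the knockout UMIs. H2-Aa was not counted in knockout L0 cells and had 895 UMIs in control ones, at least 142-fold lower against a floor of 3 UMIs over the group, and H2-Eb1, with 0 and 629 UMIs, was at least 99.8-fold lower. No knockout L0 cell reached 10 chain UMIs, which allows a share of up to 17.6% of them. In control, 8 of 33 L0 cells did (24.2%, 11.1 to 42.3), an interval that overlaps the share allowed in knockout. These 8 cells had 1326, 361, 360, 289, 254, 236, 123 and 26 chain UMIs. Without the highest of them the L0 ratio was 0.0153. The intervals of the L0 ratios cover the counting of UMIs, not which few cells were sampled.

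Chain levels in subcluster L3 were close in the libraries. L3, led by H2-Aa, H2-Eb1, Cd74, H2-Ab1, Crip1, Il1b, Plac8, Cd52, S100a4 and Ccr7, had 4 knockout and 11 control cells and was left unnamed, although its best-scoring list was that of dendritic cells. Its 3 chains had 1276 UMIs in knockout and 3538 in control, or 15615 and 16201 CPM, a ratio of 0.964 (0.903 to 1.03), which was 0.741 without the highest knockout cell. The knockout cells had 475, 451, 221 and 129 chain UMIs, and the 10 control cells past 10 UMIs had between 117 and 671. L3 cells therefore held 55.6% of the chain UMIs of the whole knockout library and 38.9% of those of the control library. Markers of dendritic cells summed to 1150 CPM in knockout and 2349 CPM in control L3 cells, with 9 and 13 of 15 markers counted. In knockout, 1 cell held 70 of the 94 UMIs of these markers, and the median of the 4 cells was 11. The 10 control cells past 10 chain UMIs had a median of 43. The part of these markers in the result was not tested.

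The remaining subclusters differed less. In L1, led by Lyz2, Plac8 and Cybb, the chains had 1064 CPM in 16 knockout cells and 826 CPM in 26 control cells, a ratio of 1.29 (1.12 to 1.48). In L2, led by Saa3 and Plac8, they had 1603 CPM in 14 knockout cells and 2760.3 CPM in 24 control cells, a ratio of 0.581 (0.520 to 0.647). These values rest on 2 knockout and 5 control cells past 10 chain UMIs in each subcluster, and single cells set them. In L1, 1 knockout cell held 342 of the 366 chain UMIs, and the ratio was 0.0905 (0.0574 to 0.136) without it and 2.12 without the highest control cell. In L2 the ratio was 0.166 without the highest knockout cell and 1.21 without the highest control cell, so no direction was fixed in either subcluster. Without L0, the ratio of the whole class was 0.721 for the chains, and without L3 it was 0.317.

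**Figure D2:**
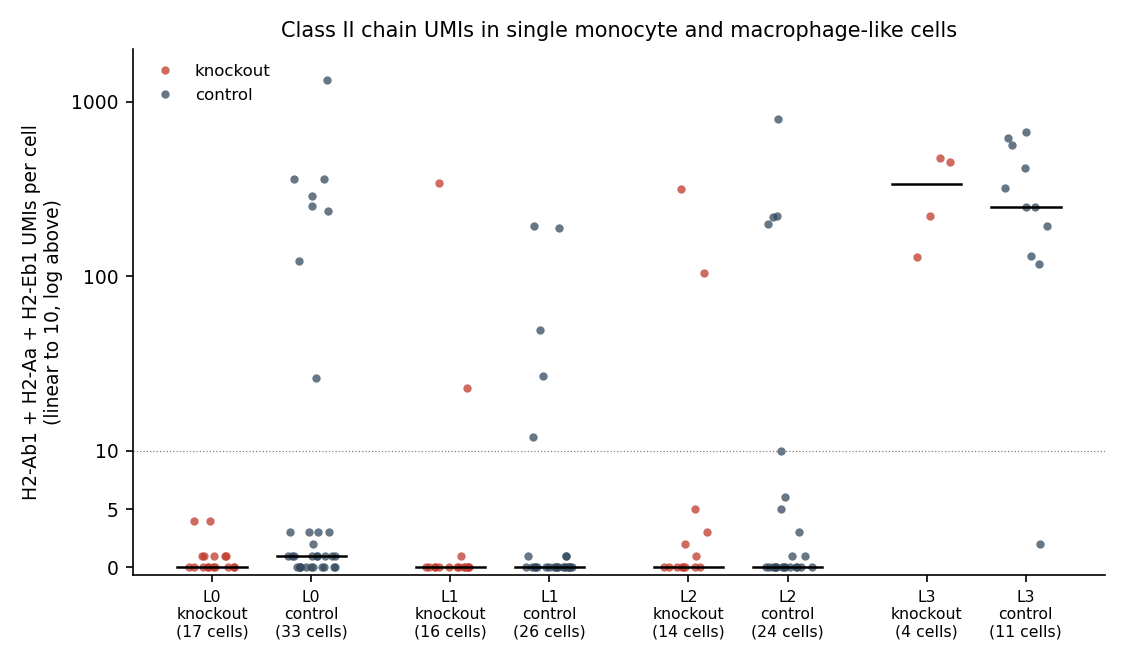
Summed H2-Ab1, H2-Aa and H2-Eb1 UMIs in each monocyte and macrophage-like cell (1 point per cell, axis linear to 10 and log above), by subcluster, with knockout left of control, bars at the median and a dotted line at 10 UMIs. No knockout L0 cell is above 4 chain UMIs, 8 control L0 cells are between 26 and 1326, and the L3 cells of both libraries stand at 100 or more apart from 1 control cell.

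Most of the 8 chain-bearing control cells of L0 differed from the other L0 cells in further genes. Apoe, the lipid carrier of glia and of resident and lipid-laden macrophages, had 106 UMIs in the 17 knockout L0 cells, against 5432 UMIs in these 8 control cells and 95 UMIs in the other 25 control L0 cells. C1qa, a complement subunit of macrophages and microglia, had 220 CPM in the knockout L0 cells, against 1095 CPM in the 8 control cells and 0 UMIs in the other 25. Ms4a7 had 43.5 CPM in knockout, against 319 and 41.8 CPM. Members of the monocyte and macrophage list did not move one way. Plac8 had 1162 CPM in knockout, against 43.8 CPM in the 8 control cells and 1335 CPM in the other 25, and the chemokine receptor gene Ccr2 had 239 CPM, against 3.13 and 197 CPM. Adgre1 had 209 CPM in knockout, against 122 and 469 CPM, while Lyz2 had 6128 CPM, against 10283 and 5763 CPM. Ly6c2 had 485 CPM in knockout, against 529 and 990 CPM, so it was lower in the 8 control cells than in the other 25 but near the knockout level. The whole monocyte and macrophage list summed to 11695 CPM in the knockout L0 cells, against 17109 CPM in the 8 control cells and 11846 CPM in the other 25. The Müller glia list, of which Apoe is a member, summed to 1563 CPM in knockout, against 18257 and 1978 CPM, and Apoe made up 93.1% of it in the 8 control cells. Of the 11 Müller glia markers, 7 were at 0 UMIs in those 8 cells, namely Rlbp1, Slc1a3, Aqp4, Dkk3, Clu, Car14 and Sox9. Glul, another of them, had 39.2 CPM in knockout, against 90.7 and 32.5 CPM, and Kcnj10 had 1 UMI in the 8 cells. The 8 cells were also deeper, with a median of 25598 UMIs in the knockout L0 cells, against 38587 and 25163 UMIs.

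Apoe-rich cells were counted in the control library. With a bound of 100 Apoe UMIs per cell, chosen after the values were seen, 0 of 51 knockout monocyte and macrophage-like cells passed, which allows a share of up to 5.88%, and 7 of 94 control cells passed (7.45%, 3.05 to 14.7). Of those 7 control cells, 6 were in L0 and had at least 10 chain UMIs, with Apoe at 1278, 1188, 1140, 951, 527 and 309 UMIs and chains at 123, 361, 26, 289, 254 and 236 UMIs in the same order. The L0 control cells with 1326 and 360 chain UMIs were not among them, with 38 and 1 Apoe UMIs. Those 2 cells held 1686 chain UMIs, 56.7% of those of the 8 cells, so most of this chain RNA was in cells under the Apoe bound. The highest Apoe count in a knockout cell of the class was 55 UMIs, and 1 knockout and 2 control cells had 50 to 99.

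**Figure D3:**
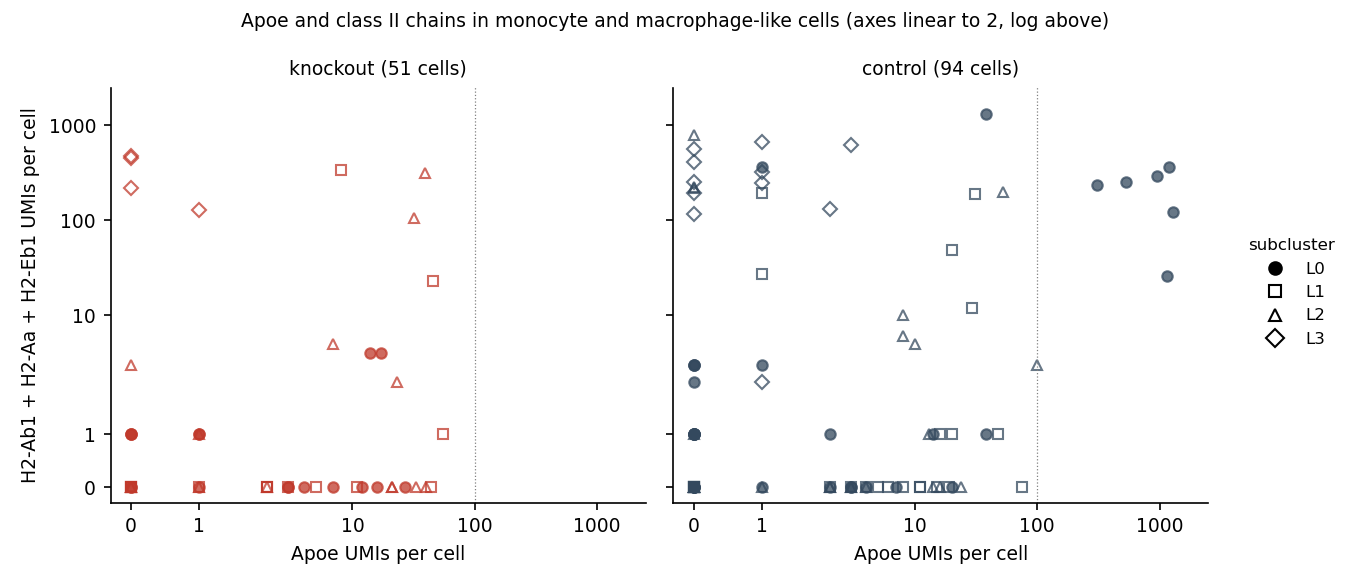
Apoe UMIs against summed class II chain UMIs in each monocyte and macrophage-like cell, knockout left and control right (both axes linear to 2 and log above, dotted line at 100 Apoe UMIs, filled circles for L0). A group of 6 control L0 cells is high on both axes, and no knockout cell lies past the dotted line.

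Müller glia-like cells carried far less chain RNA, and it was lower in the knockout library. This class had 554 knockout and 351 control cells, 11.9% and 4.24% of the kept cells, with a median of 20102 and 14057 UMIs. H2-Ab1 had 65 UMIs in 37 knockout cells and 157 UMIs in 44 control cells, or 5.94 CPM (4.58 to 7.57) and 30.1 CPM (25.6 to 35.2), a ratio of 0.197 (0.145 to 0.265). H2-Aa had 11 UMIs in knockout and 42 in control, a ratio of 0.125 (0.0580 to 0.247), and H2-Eb1 had 3 and 40 UMIs, a ratio of 0.0358 (0.00708 to 0.112). The 3 chains together had 7.22 CPM (5.71 to 8.99) in knockout and 45.8 CPM (40.2 to 52.0) in control. Rod-like cells, which should lack class II and so show the level of free RNA in each suspension, had 4.83 CPM (1.31 to 12.4) in knockout and 12.1 CPM (9.12 to 15.9) in control. The knockout Müller glia-like level lay inside the interval of its rod-like cells, and the control level lay above that of its own. The knockout rod-like level rests on 4 UMIs. Bipolar-like cells, which held more UMIs, had 1.09 CPM (0.522 to 2.00) in knockout and 2.34 CPM (1.24 to 4.00) in control, and amacrine-like cells had 1.61 CPM (0.880 to 2.70) and 5.21 CPM (3.46 to 7.52). The Müller glia-like level was above these in both libraries.

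Among Müller glia-like cells, 6 of the 7 genes had enough UMIs for a ratio, and each was at least 1.5-fold lower in knockout, where 21.5% of 13950 genes were lower and 6.42% were higher. Their median log2 ratio was -2.31, beside -0.18 over all genes of the class. Scaling the libraries by TMM in place of total UMIs moved every log2 ratio of this class up by 0.20, which left the 3 chains at a ratio of 0.181.

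The difference in Müller glia-like cells was also one of cells with several chain UMIs. At least 1 chain UMI was counted in 40 of 554 knockout cells (7.22%) and 53 of 351 control cells (15.1%). After each cell was thinned to 1000 UMIs, a chain UMI remained in 2 of 540 knockout cells (0.370%, 0.0449 to 1.33) and 8 of 324 control cells (2.47%, 1.07 to 4.81), and these intervals overlap. Thinned rod-like cells had one in 0 of 254 knockout cells, which allows a share of up to 1.18%, and in 26 of 2226 control cells (1.17%, 0.764 to 1.71). The share of Müller glia-like cells was thus not distinguishable from that of rod-like cells in either library at this depth. Thinned bipolar-like cells had one in 1 of 1063 knockout cells (0.0941%) and 1 of 663 control cells (0.151%, 0.0038 to 0.837). The control bipolar-like interval lay below that of control Müller glia-like cells, and the knockout intervals overlapped. Thinned amacrine-like cells had one in 1 of 862 knockout cells (0.116%) and 2 of 490 control cells (0.408%, 0.0495 to 1.47), with intervals that overlapped those of Müller glia-like cells. At least 5 chain UMIs were counted in 2 knockout and 15 control cells, and at least 10 in 1 knockout cell, with 12, and in 9 control cells, with 10 to 27 and a median of 13. Of those 9 control cells, 8 had all 3 chains. The 15 control cells with at least 5 chain UMIs had 14566 CPM of Müller glia markers and 74.7 CPM of monocyte and macrophage markers, and the other 336 control cells had 15965 and 45.1 CPM. These 15 cells were deeper, with a median of 33082 UMIs against 13654 in the other 336, and the 9 control cells past 10 chain UMIs had a median of 37358. Doublets were not removed, and the part of depth in these counts was not tested. Over the class the monocyte and macrophage list summed to 39.8 CPM in knockout and 47.7 CPM in control, with 14 and 15 of 17 markers counted, below the 60.3 and 98.7 CPM of rod-like cells. Ms4a7, C1qa and Ccr2 were at 0 in knockout, and Adgre1 and Fcgr1 were at 0 in control. In the same class the Müller glia list summed to 11953 CPM in knockout and 15839 CPM in control, the dendritic list to 134 and 95.1 CPM, the neutrophil list to 86.8 and 214 CPM and the rod list to 312 and 857 CPM, and their part in the result was not tested.

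Cd74, the invariant chain, was the most widely counted of the 7 genes. In monocyte and macrophage-like cells it had 1686 UMIs in 33 knockout cells and 7436 UMIs in 73 control cells, or 1459 CPM (1390.45 to 1531) and 3247 CPM (3173 to 3321), a ratio of 0.449 (0.426 to 0.474). Its pattern over the subclusters was that of the chains, with 102 CPM in knockout and 3285 CPM in control L0 cells and a ratio of 0.0311 (0.0228 to 0.0415). In L3 the ratio was 0.963 (0.895 to 1.04), and 0.737 (0.675 to 0.804) without the highest knockout cell. In L1 it was 1.06, and single cells set it, with 0.101 without the highest knockout cell and 1.84 without the highest control cell. In L2 it was 0.639, and 0.279 and 0.892 without those cells. Without L0 the ratio of the class was 0.732, and without L3 it was 0.285.

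In Müller glia-like cells Cd74 had 480 UMIs in 143 knockout cells and 780 UMIs in 99 control cells, or 43.8 CPM (40.0 to 48.0) and 149 CPM (139 to 160.3), a ratio of 0.293 (0.261 to 0.329). These levels were above those of rod-like cells, at 8.45 CPM (3.40 to 17.4) in knockout and 12.1 CPM (9.13 to 15.9) in control. Thinned to 1000 UMIs, a Cd74 UMI remained in 17 of 540 knockout cells (3.15%) and 28 of 324 control cells (8.64%), and in 0.787% and 0.854% of rod-like cells. A gap between the libraries was therefore seen in the share of cells as well as in the level.

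The 6 clusters of Müller glia-like cells did not all share the difference. Cd74 was lower in knockout in n01, n02, n03 and n09. The ratios were 0.122 (0.0972 to 0.152), 0.335 (0.285 to 0.394), 0.155 (0.0756 to 0.295) and 0.0650 (0.0384 to 0.108). It was higher in n05 and n07, with ratios of 8.69 (3.33 to 20.4) and 1.70 (0.912 to 3.47). The n05 value rests on 8 UMIs in 5 knockout cells and 21 UMIs in 129 control cells. Single cells weighed on the lower ratios too. The highest control cell held 41 of 48 Cd74 UMIs in n09, from 12 control cells, and 90 of 210 in n01. In n02 the highest knockout cell held 83 of 236. The libraries filled the clusters unequally: n01, with 211 knockout and 36 control cells, held most of any cluster in knockout, and n05 held most of any in control. In n02, which both libraries filled with 103 and 64 cells, Cd74 had 79.0 CPM in knockout and 236 CPM in control, and the 3 chains had 8.04 and 60.6 CPM.

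Cd74 was near equal in the libraries in cluster n06, where chains were scarce. This unnamed non-neuronal cluster, shown as the Chil1-led cluster in the plots, was led by Chil1, Orm1 and Grem1 and had 47 knockout and 59 control cells. The Müller glia gene Rlbp1 had 10.5 CPM there in knockout and 9.56 CPM in control, against 174 and 395 CPM in Müller glia-like cells, although the whole Müller glia list summed to 12106 and 11798 CPM in the cluster. Monocyte and macrophage markers summed to 147 CPM in knockout and 96.5 CPM in control there. Cd74 had 812 UMIs in 41 of 47 knockout cells (87.2%) and 1492 UMIs in 55 of 59 control cells (93.2%), or 314 CPM (293 to 337) and 332 CPM (315 to 349), a ratio of 0.948 (0.869 to 1.03). Cells thinned to 1000 UMIs gave a ratio of 1.42, in the other direction, with a median depth of 26831 UMIs in knockout and 57763 in control before thinning. The 3 chains had 16 UMIs in knockout and 84 in control, or 6.19 and 18.7 CPM, a ratio of 0.332 (0.181 to 0.571). Rod-like cells, taken as the free RNA level, had 4.83 and 12.1 CPM, a ratio of 0.397 (0.105 to 1.08). The part of free RNA in the n06 chain ratio was not tested. At least 10 Cd74 UMIs were counted in 19 knockout and 37 control cells, of which 8 and 21 had no chain UMI and 0 and 3 had at least 10. Of the 6 genes with enough UMIs in n06, 2 (H2-Aa and H2-Eb1) were at least 1.5-fold lower in knockout, beside 13.9% of 12035 genes lower and 6.33% higher.

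The number of Cd74 UMIs per chain UMI varied widely between classes. It was 0.807 (0.757 to 0.861) in knockout and 0.877 (0.850 to 0.905) in control monocyte and macrophage-like cells, and 0.780 in both libraries in L3. The Müller glia-like value was 6.08 (4.78 to 7.81) in knockout and 3.26 (2.82 to 3.79) in control. In n06 it was 50.8 (31.1 to 89.2) in knockout and 17.8 (14.3 to 22.4) in control. Neutrophil-like cells overlapped n06, at 27.3 (9.03 to 135) in knockout and 11.8 (6.96 to 21.5) in control, and the unnamed cluster n08 had 26.0 (6.84 to 220.4) in knockout and 4.37 (3.36 to 5.73) in control. Rod-like cells of the control library, taken as the free RNA level, had 1.00 Cd74 UMI per chain UMI (0.673 to 1.49). H2-Ab1 made up 34.7% of the chain UMIs in knockout and 40.4% in control monocyte and macrophage-like cells, and 82.3% and 65.7% in Müller glia-like cells.

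**Figure D4:**
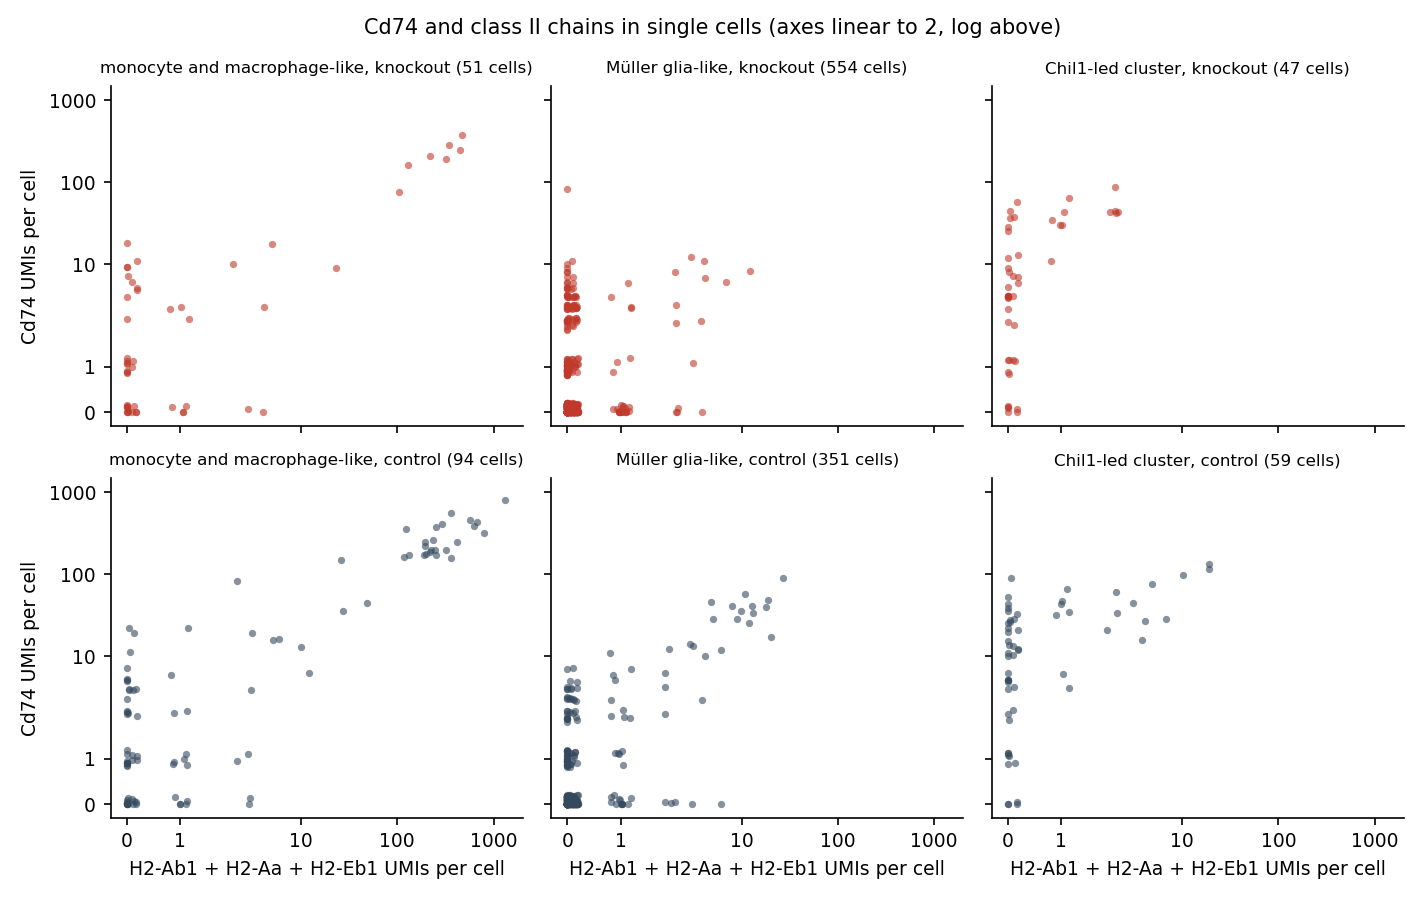
Cd74 UMIs against summed chain UMIs per cell in monocyte and macrophage-like, Müller glia-like and cluster n06 cells, with knockout cells in the upper row and control cells in the lower row (1 point per cell, slightly jittered, axes linear to 2 and log above). Cells of n06, the Chil1-led cluster, spread along the Cd74 axis at few or no chain UMIs, with 87 Cd74 UMIs at most in knockout and 135 in control.

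Neutrophil-like cells carried Cd74 with hardly any chain RNA. Cd74 had 62.8 CPM in 164 knockout cells and 95.3 CPM in 224 control cells, a ratio of 0.659 (0.501 to 0.861), with 3 and 15 chain UMIs in all; 30.5% of 7619 genes were lower and 5.34% higher in the knockout cells of this class. In endothelial-like cells Cd74 had 16.5 CPM in 50 knockout cells and 41.8 CPM in 55 control cells, a ratio of 0.394 (0.256 to 0.595), beside 13.8% of 10566 genes lower and 5.46% higher. The 2 knockout and 18 control T and NK-like cells had no chain UMI, and Cd74 had 0 and 9 UMIs there. In cluster n10, Cd74 had 41 UMIs in 60 knockout cells and 183 in 18 control cells, but 1 control cell held 135 of the 183.

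The DM genes had a smaller part of their UMIs in monocyte and macrophage-like cells than the chains had. H2-DMa, the DM alpha chain, had only 21.2% of its UMIs in monocyte and macrophage-like cells in knockout and 52.3% in control. In that class it had 68 UMIs in 27 knockout cells and 265 UMIs in 59 control cells, or 58.9 and 116 CPM, a ratio of 0.509 (0.384 to 0.666). Its ratio was 0.560 (0.270 to 1.08) in L0, 0.520 (0.288 to 0.896) in L1, 0.370 (0.187 to 0.674) in L2 and 0.718 (0.442 to 1.13) in L3. In Müller glia-like cells it had 3.11 CPM in knockout and 6.32 CPM in control, a ratio of 0.491 (0.295 to 0.818), beside 1.21 and 4.27 CPM in rod-like cells. Taking the rod-like level away left a Müller ratio of 0.926. That value rests on 1 knockout and 19 control rod-like UMIs of H2-DMa, and the part of free RNA in the difference was not tested.

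Neurons held a low level of H2-DMa in both libraries. Amacrine-like cells had 7.12 CPM in knockout and 7.81 CPM in control, a ratio of 0.912 (0.607 to 1.38). Horizontal-like cells had 9.09 and 15.5 CPM from 12 and 16 UMIs, in cells where Cd74 was at 0 UMIs in both libraries. Retinal ganglion-like cells had 10.6 and 6.35 CPM from 30 and 8 UMIs, a ratio of 1.67 (0.747 to 4.21). These intervals include equal levels. The overlap of H2-DMa with Brd2 was not separated from these counts.

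H2-DMb1, the DM beta chain, had 68.1% of its UMIs in monocyte and macrophage-like cells in knockout and 68.2% in control, and 22.7% and 17.0% in cluster n06. It had 81 UMIs in 19 knockout cells and 197 UMIs in 46 control cells of that class, or 70.1 and 86.0 CPM, a ratio of 0.815 (0.621 to 1.06). It had 7 and 17 UMIs in knockout and control Müller glia-like cells, a ratio of 0.196 (0.0688 to 0.498). In n06 it had 10.5 CPM in knockout and 10.9 CPM in control, a ratio of 0.960 (0.577 to 1.57).

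**Figure D5:**
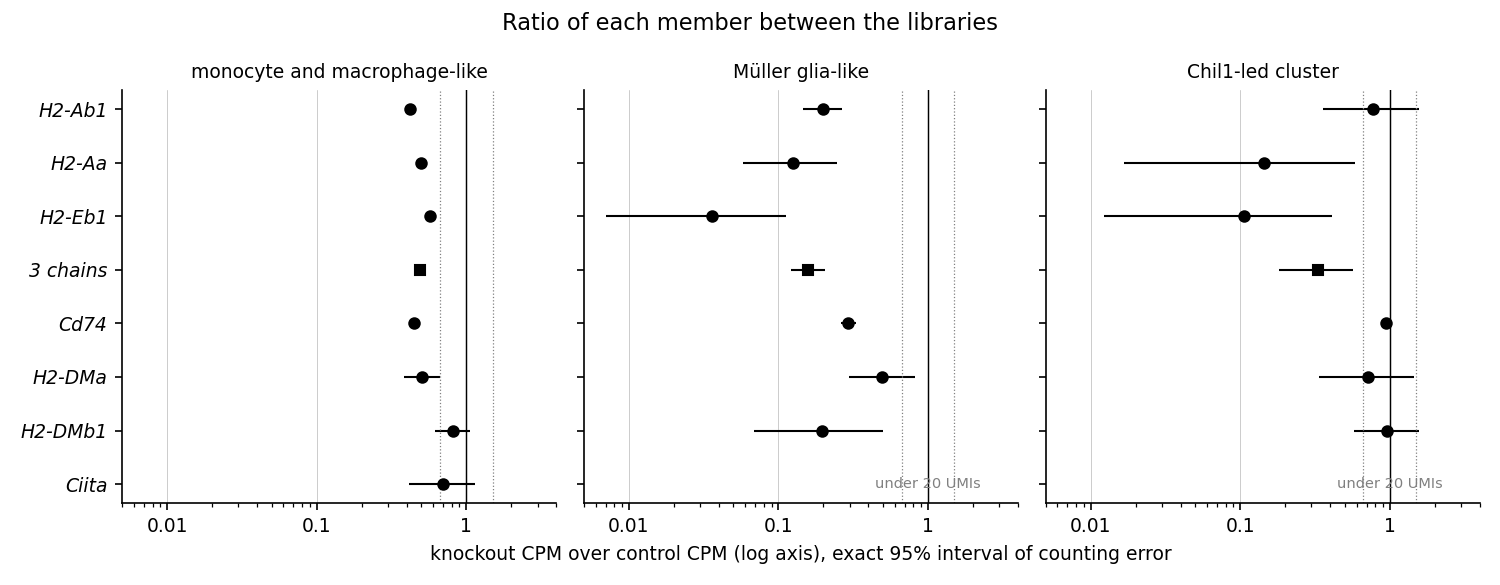
Knockout over control ratio of each gene (log axis, points with exact 95% intervals of counting error) in monocyte and macrophage-like cells, Müller glia-like cells and cluster n06; squares are the 3 chains summed, dotted lines the 1.5-fold bounds, and genes under 20 UMIs are marked. In Müller glia-like cells every ratio is below 0.5, while in n06 Cd74 and H2-DMb1 lie close to 1.

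Ciita, the coactivator, was counted sparsely. In monocyte and macrophage-like cells it had 23 UMIs in 7 knockout cells and 65 UMIs in 16 control cells, or 19.9 and 28.4 CPM, a ratio of 0.701 (0.416 to 1.14). Of these UMIs, 18 in knockout and 46 in control were in L3, where the level was 220.3 and 211 CPM, a ratio of 1.05 (0.571 to 1.84). One knockout L3 cell held 11 of those 18 UMIs, and without it the knockout level was 117 CPM and the ratio 0.557 (0.212 to 1.24). L0 had 1 Ciita UMI in knockout and 0 in control, where the control cells held 2998 chain UMIs, and a floor of 3 UMIs over those control cells is 3.11 CPM. Among the cells with at least 10 chain UMIs, a Ciita UMI was counted in 4 of 4 knockout and 9 of 10 control cells of L3, in 1 of 2 and 4 of 5 of L1, in 1 of 2 and 1 of 5 of L2, and in 0 of 8 control cells of L0. Ciita was at 1 and 5 UMIs in Müller glia-like cells and at 0 in n06 in both libraries, too few for a ratio.

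Transcription factors of the pathway differed unevenly. In monocyte and macrophage-like cells, 8 of the 32 other pathway genes with enough UMIs were at least 1.5-fold lower in knockout, 3 were higher and 21 lay between, beside 14.5% of all genes of the class lower and 6.9% higher. Their median log2 ratio was near 0, beside -0.02 over all genes. Irf1, which relays interferon signals to Ciita, was among the lower ones, at a ratio of 0.439, as were Irf8 at 0.540 and the feedback inhibitor Socs1 at 0.422, from 10 and 47 UMIs. Rfx5, the X box binding subunit, had 4 UMIs in knockout and 7 in control. Spi1, a myeloid master regulator, had 628 CPM in knockout and 569.8 CPM in control, a ratio of 1.10.

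Among the Müller glia-like cells, 6 of the 24 other pathway genes with enough UMIs were lower in knockout, 2 were higher and 16 lay between, beside 21.5% of all genes of the class lower and 6.42% higher. Their median log2 ratio was -0.15, beside -0.18 over all genes, so the list stood near the background of the class. Irf1 had 83.0 CPM in knockout and 180 CPM in control. Socs1 ran the other way, with 111 CPM in knockout and 54.4 CPM in control, a ratio of 2.03 (1.79 to 2.32), which was the highest of the list. The smallest ratio was that of March1, a ubiquitin ligase that removes class II from the cell surface, at 0.318 from 196 and 294 UMIs. March1 was far higher in rod-like cells, at 4293 CPM in knockout and 5876 CPM in control, and the rod markers in Müller glia-like cells were likewise lower in knockout, at 312 and 857 CPM. The part of rod RNA in the March1 ratio was not tested. Rfx5 had a ratio of 0.621 (0.386 to 1.01). In n06, 2 of 23 were lower and 0 higher, beside 13.9% and 6.33% of all its genes.

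Interferon gamma itself was counted in the control library. Ifng had 0 UMIs in the knockout library and 51 UMIs in 9 control cells, of which 43 were in 6 of the 18 control T and NK-like cells. The knockout library had 2 cells of that class, so their number limits what a count of 0 shows.

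Endosomal proteases, among them those that trim the invariant chain, did not move one way. In monocyte and macrophage-like cells Ctss had 1401 CPM in knockout and 1569 CPM in control, a ratio of 0.893, and Ctsb had 1141 and 1089 CPM, a ratio of 1.05. Ctsd was lower there, at 382 and 623 CPM and a ratio of 0.613, Lgmn was higher, at 343 and 227 CPM and a ratio of 1.51, and Ctsl had a ratio of 0.711. Ifi30, the thiol reductase of the same compartment, had a ratio of 1.14. Müller glia-like cells had Ctsl at 1089 CPM in knockout and 938 CPM in control, a ratio of 1.16, Ctsd at 417 and 373 CPM, Ctsb at 292 and 268 CPM, and Ctss at 8 and 6 UMIs. Ifi30 was lower there, at 0.643. The cathepsins with enough UMIs in Müller glia-like cells thus stood between the 1.5-fold bounds, and so did Lgmn at 0.900.

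Paralogs of the members were rare. H2-Oa and H2-Ob, which form the DO inhibitor of DM, had 3 and 4 UMIs in the knockout library and 34 and 36 in the control library. In monocyte and macrophage-like cells H2-Oa had the smallest ratio of the pathway list, 0.0684 (0.00167 to 0.412), from 1 and 29 UMIs, and H2-Ob had 0.317 (0.0802 to 0.919). H2-DMb2 had 22 UMIs in knockout and 26 in control there, the largest ratio of the list at 1.68 (0.906 to 3.08). H2-Eb2 was at 1 and 3 UMIs over all kept cells.

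The genes with the level pattern most like that of the chains and Cd74 over classes were Ifi205, Klrk1, Krt80, Phf11a, C1qc, Ccr7, Fgd2, Il21r, Cd180 and Msr1, with Pearson r of log2 levels between 0.963 and 0.983 over 20 points. The points are 10 classes in each of the 2 libraries and share those libraries and their depth, so r is a description. Within the monocyte and macrophage-like class, the genes highest in cells with at least 10 chain UMIs relative to the others were Ccr7, Zfp366, Klrk1, Gpnmb, Cd209a, Ccl22, Il4i1, P2ry10, Tbc1d4 and Gpr183. Ccr7, the chemokine receptor of migrating dendritic cells, had 62 UMIs in 1 of the 8 knockout chain-bearing cells and 206 UMIs in 9 of the 28 control ones. Ccl22, a dendritic cell chemokine, had 3 UMIs in 1 of the 8 knockout cells and 122 UMIs in 6 of the 28 control cells. Il4i1 had 61 UMIs in 3 knockout cells and 117 UMIs in 12 control cells. Gpnmb and Cd209a each had 1 UMI in 1 knockout chain-bearing cell, so their place in knockout rests on that UMI. In control chain-bearing cells Gpnmb had 61 UMIs in 4 and Cd209a had 69 UMIs in 2. These counts came from few cells in each library.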

How the data were processed

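The files deposited by the authors give raw counts of UMIs for each gene in each barcode. Cell Ranger 6.0.0 wrote them, per the file headers. Per the labels the genome build was mm10, and the submitters' processing notes also list Seurat 5.2.1. The release of the annotation, and whether counting used strand, are not given in the sources used here. No column of another sample was used.

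Cells were kept if they had 500 genes or more and under 25% of UMIs from mitochondrial genes. The 40 features that repeat a symbol were left out. Both libraries were merged and clustered in R 4.3.3 with Seurat 5.3.0 (2000 variable genes less 7 class II genes found among them, 11 principal components, resolution 1.0, seed 1). The genes to leave out were the members and the paralogs H2-DMb2, H2-Oa, H2-Ob and H2-Eb2, so these 7 need not be the 7 members. Non-neuronal clusters were clustered again. Clusters were named from 23 marker lists where at least 3 markers were detected, the best list's log2 score was at least 1 and led the next by 1, and no other list had more of the cluster's top 10 genes than the best list. A Müller glia name also needed Rlbp1 at 2 times the median cluster, which left n06 unnamed. Both rules were chosen with the data in view, and differences from the study's own cell types may come from these rebuilt names. Scrublet, run with scanpy 1.11.5, called 0 cells in either library and so did not work, and doublets were treated only by leaving out the highest scores as an alternative. UMIs were summed per class and library in Python 3.11.15 (numpy 2.4.6, scipy 1.17.1, pandas 2.3.3). Levels have exact Poisson intervals, ratios exact conditional binomial intervals and shares Clopper-Pearson intervals, at 95%. A ratio was given from 20 UMIs over both libraries. A count of 0 was bounded with 3 counts. The ratio and interval code was tested on simulated data. TMM factors came from edgeR 4.0.16.

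The text names the 7 members. From 35 other pathway genes it names the 3 of highest level and the extreme ratios in each class, the paralogs and a few regulators; Irf1 and Irf8 were picked after their values were seen, and 1 gene of the list is not reported here by name. It also names the 10 genes of most similar profile and the 10 highest in chain-bearing cells. Apoe and the other genes of the chain-bearing L0 cells were chosen after their values were seen. The members and lists were chosen with earlier results of these data known. Alternatives changed scaling, averaging, depth, clustering, cell filters, free RNA and the cells left out.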

Additional observations from a re-analysis of the deposited data

Results flagged for a closer look

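H2-Ab1 ran in opposite directions in a neuronal class and a non-neuronal cluster. In retinal ganglion-like cells it had 21 UMIs in 11 of 80 knockout cells and 1 UMI in 1 of 39 control cells, a ratio of 9.34 (1.502 to 386). In the unnamed cluster n08 it had 2 UMIs in 35 knockout cells and 57 in 65 control cells, a ratio of 0.0533 (0.0063 to 0.201). The difference between these ratios was not tested. The ganglion-like knockout cell with most H2-Ab1 had 7 UMIs among 161626, with no Cd74 UMI, and Cd74 had 2 and 0 UMIs in that class.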

How the results depend on the processing

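The ratios of the 3 chains and of Cd74 stayed below 1 in all 15 alternatives run for each in monocyte and macrophage-like cells, and in the 17 and 18 run in Müller glia-like cells. In monocyte and macrophage-like cells (0.488 for the chains and 0.449 for Cd74), the ratios became 0.592 and 0.554 as means of per-cell CPM, 0.127 and 0.156 without the 5 highest cells of each library, 0.583 and 0.659 in thinned cells, 0.636 and 0.565 with classes from each cell's own markers, and 0.370 and 0.366 without the highest Scrublet scores. Only 8 knockout and 28 control cells had at least 10 chain UMIs, so leaving out 5 took a larger part of the knockout ones. A lower ratio was built into that alternative. Chosen after seeing the data, leaving out L3 gave 0.317 and 0.285, and leaving out L0 gave 0.721 and 0.732.

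In Müller glia-like cells (0.158 and 0.293), they became 0.0710 and 0.224 as means of per-cell CPM, 0.223 and 0.416 with the class II genes among the features, 0.221 and 0.407 at resolution 0.5, and 0.0710 and 0.258 with free RNA taken away. Cd74 alone moved to 0.337 with TMM and 0.373 with own markers. Chosen after seeing the data, counting n06 as Müller glia gave 0.211 and 0.408, n01 alone 0.0664 and 0.122, and leaving out n05 0.116 and 0.207; Cd74 alone moved to 0.339 with Cryab as a lens gene, 0.235 with n08 and n10 added, and 0.335 in n02 alone. The cause was not tested. Without the highest control cell, chosen after seeing the data, the L2 ratio of the chains became 1.21, against 0.581 with it.

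Of 189 other values (single genes, and the 3 chains in n06), 151 moved by less than their counting interval and 38 moved by more. Among the 189, 7 were at or above 1, such as Ciita at 1.44 and H2-DMb1 at 1.11 with own markers. The chains and Cd74 in monocyte and macrophage-like and Müller glia-like cells are not in that count. There Cd74 moved by more in 7 of 15 and 12 of 18 alternatives, and the chains in 7 of 15 and 7 of 17. For n06, the clustering, own-marker and unfiltered alternatives were not run. No paired analysis was possible because each group is 1 library. Depth limits Ciita most, at 51 knockout and 99 control UMIs in all.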

Other observations

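Cd74 was counted in barcodes that the filter left out, with 2 UMIs in 567 knockout barcodes and 23 UMIs in 416 control barcodes, and the chains with 1 and 7 UMIs. In the unnamed cluster a5, knockout cells had 23 chain UMIs, of which 91.3% were H2-Ab1. Like the knockout ganglion-like cells, where H2-Ab1 made up 80.8% of 26 chain UMIs, these cells had H2-Ab1 with little of the other chains or of Cd74.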
